A study of Caenorhabditis elegans with 2 samples.

Results

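The genes hsp-1, dnj-13, cct-8 and cdc-48.1 act in protein folding and protein turnover, and each has an HMBX-1 ChIP-seq region close to its start. They are 4 of 19973 nuclear protein-coding genes of the Ensembl annotation, and were selected on the deposited region lists themselves, because a thresholded region has its summit within 1000 bp of each gene start. The presence of a region at each gene is therefore the rule and not a finding, and no test is given on it. Among the other folding and turnover genes listed below, 7 also have such a region, and why these 4 were taken is not known here. The regions come from a Caenorhabditis elegans strain, OP656, with the mutation unc-119(tm4063) on chromosome III and the transgene insertion wgIs656, which expresses HMBX-1 with a C-terminal GFP-FLAG tag. Mixed-sex early embryos were used, 45 min after egg bleaching, in 2 biological replicates of a single group, and the labels describe immunoprecipitation of the fusion with an anti-GFP antibody, although their antibody field names hmbx-1. Both replicates carry the transgene, whole embryos were used so that cells of every type contribute, and neither untagged worms nor an input track was analysed here.

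These genes belong to the machinery that keeps proteins folded. HSP-1 is the constitutive cytosolic HSP70 of the worm, an ATP-driven chaperone that binds exposed hydrophobic stretches of unfolded proteins. DNJ-13 is a J-domain protein, a class that delivers substrates to HSP70 and stimulates its ATPase, and is related to human DNAJB1. CCT-8 is a subunit of the ring-shaped cytosolic chaperonin CCT, also called TRiC, which encloses actin, tubulin and other clients. CDC-48.1 is a worm form of the AAA ATPase known as p97 or VCP in mammals, which pulls ubiquitin-tagged proteins out of complexes and membranes before the proteasome degrades them. HMBX-1 is the worm relative of human HMBOX1, a homeodomain protein.

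The reference sequence under the 5 thresholded regions is shown because the words discussed below lie in it. Each line gives the 201 bases centred on a summit, 5′ to 3′ on the strand of the gene, from the RefSeq WBcel235 genome (ce11 coordinates). Capitals mark matches to the 7 words searched, and a window in lower case throughout holds none of them.

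hsp-1 upper region (chrIV:17278485-17278685, plus strand): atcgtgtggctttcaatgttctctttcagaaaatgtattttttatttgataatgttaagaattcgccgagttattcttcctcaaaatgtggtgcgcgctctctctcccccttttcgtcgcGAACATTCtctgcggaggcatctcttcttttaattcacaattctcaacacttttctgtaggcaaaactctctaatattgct
hsp-1 lower region (chrIV:17278691-17278891, plus strand): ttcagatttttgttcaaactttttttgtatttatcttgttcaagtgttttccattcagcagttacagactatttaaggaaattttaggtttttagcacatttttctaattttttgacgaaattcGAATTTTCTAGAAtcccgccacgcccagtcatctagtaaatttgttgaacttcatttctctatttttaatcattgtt
dnj-13 (chrII:11545664-11545864, plus strand): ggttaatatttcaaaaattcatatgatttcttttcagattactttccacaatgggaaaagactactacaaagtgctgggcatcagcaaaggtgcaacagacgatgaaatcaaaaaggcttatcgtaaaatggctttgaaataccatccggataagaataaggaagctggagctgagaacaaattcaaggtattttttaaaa
cct-8 (chrIV:1094276-1094476, minus strand): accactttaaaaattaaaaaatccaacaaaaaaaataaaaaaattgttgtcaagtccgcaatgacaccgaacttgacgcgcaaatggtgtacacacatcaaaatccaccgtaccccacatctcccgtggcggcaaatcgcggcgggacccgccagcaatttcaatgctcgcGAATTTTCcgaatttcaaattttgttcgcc
cdc-48.1 (chrII:10563491-10563691, minus strand): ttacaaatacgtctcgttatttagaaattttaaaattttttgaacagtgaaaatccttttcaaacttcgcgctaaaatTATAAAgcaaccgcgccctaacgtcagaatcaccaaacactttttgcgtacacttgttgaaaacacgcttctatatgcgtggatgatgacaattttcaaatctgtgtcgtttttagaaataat

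In all 5 windows, each of the 172 overlapping 30-base pieces occurred once in the genome. The windows are thus not repeats at that length, and the read length is not given in the sources used here. Their GC content was 38.8% and 28.9% at hsp-1, 34.3% at dnj-13, 43.3% at cct-8 and 32.8% at cdc-48.1. The median was 44.8% over all 416 nuclear thresholded regions and 39.8% over the 215 of them more than 250 bp from a tRNA, snoRNA, snRNA or rRNA gene. Over the 29562 pooled relaxed regions outside the thresholded list it was 33.8%. All 5 windows were thus below the first of these medians, 4 were below the second, and 3 (the upper hsp-1, dnj-13 and cct-8 windows) were above the last.

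Of 437 thresholded regions, 416 lay on nuclear chromosomes, with signal values from 95.3 to 688 and a median of 134.0. The signal value is the authors' own peak-caller value; it is used only within a list, and the number of reads behind it is unknown. The relaxed lists, which by design hold background along with peaks, had 29978 nuclear regions for the pooled replicates, 25383 for replicate 1 and 22887 for replicate 2. The nuclear thresholded regions were the pooled regions of highest signal, since none of the 29562 others reached the lowest thresholded value and the strongest of them had 95.2. A region within 1000 bp of the start was present for 1.49% of protein-coding genes in the thresholded list (297 genes). The share was 46.2% in the pooled relaxed list, 41.9% in replicate 1 and 39.3% in replicate 2. Presence in a relaxed list alone is therefore common. All 4 genes were in all 4 lists. The rule fixed this for the thresholded list and for the pooled list that contains it, and 415 of the 416 thresholded regions had a region within 250 bp in both replicates, so presence in the replicate lists is no separate support. In the pooled list 99.8% of nuclear summits were at the middle of their region, so a summit gives the centre of a window of about 490 bp rather than a single base.

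The gene hsp-1 (WBGene00002005, IV, 17278959 to 17281330, plus strand) carried the strongest region of the 4 genes and was the only one of them with a pair of thresholded regions. The upper region (IV, 17278340 to 17278829) had a signal of 191.6, rank 110 of 416, and its summit lay 374 bp upstream of the start. The lower region (IV, 17278546 to 17279035) overlapped it, with a signal of 103.6, rank 362, and a summit 168 bp upstream. Among the 297 genes with a thresholded region, 18 (6.06%) had more than one.

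The replicates resolved this stretch differently. Replicate 2 held a pair as well, with signals of 122.4 at 391 bp upstream, rank 31 of 22887, and 63.1 at 185 bp upstream, rank 179. Replicate 1 held a single region there, with a signal of 91.2, rank 175 of 25383, and a summit 260 bp upstream, between the pooled summits. The rank of the strongest hsp-1 region thus differed by over 1.5 times between the lists, being 31 in replicate 2, 175 in replicate 1 and 110 in the pooled list. The thresholded hsp-1 summits are 206 bp apart, and this spacing was common: 29 pairs of neighbouring thresholded summits lay within 250 bp of each other, with gaps of 199 to 214 bp and a median of 203 bp. In all 4 lists the smallest gap was 199 bp. Whether the pair marks separate binding sites was not tested. Replicate 1 also held a low-ranking region of 17.5 at 605 bp inside the gene, rank 24295 of 25383.

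No other protein-coding start was nearer to either hsp-1 summit than that of hsp-1. The start of F26D10.23, a gene annotated as ncRNA (IV, 17278413 to 17278502, plus strand), was nearer to the upper summit, at 172 bp, and its body ended 83 bp from that summit. For the lower summit hsp-1 was the nearest start of any kind. The closest snoRNA gene, F26D10.24, lay within the bounds of hsp-1, 1461 bp from the upper summit.

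The gene dnj-13 (WBGene00001031, II, 11545701 to 11547360, plus strand) had the weakest of the 5 regions and the only one with a summit inside the annotated gene. The region (II, 11545519 to 11546008) had a signal of 96.8, rank 403 of 416, and its summit lay 63 bp downstream of the start, in the coding part of the first exon. It was thus just inside the thresholded list, which ended at 95.3. A further pooled region of 71.5 at 267 bp downstream, rank 880, was outside it. Beyond the 1000 bp used, a stronger thresholded region of 110.2, rank 318, had its summit past the annotated end of dnj-13. That summit was 87 bp upstream of the F54D5.7 start.

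Position and strength at dnj-13 also differed between the replicates. Replicate 1 had regions of 75.8 at 81 bp and 55.9 at 287 bp downstream, ranks 250 and 516. Replicate 2 had its strongest region 141 bp upstream, with 35.0 and rank 830, followed by 22.6 at 72 bp and 12.9 at 275 bp downstream. On replicate 2 alone dnj-13 would therefore not be among the 416 regions of highest signal. The interval between dnj-13 and the divergent gene F54D5.9, whose start is 936 bp from the summit, also holds F54D5.22, an ncRNA annotated on both strands, with starts at 151 and 300 bp. No start of any gene was nearer to the summit than that of dnj-13. The Ensembl model of dhgd-1 (II, 11538895 to 11552081, minus strand) spans dnj-13, and the summit falls in an intron of that model.

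The region at cct-8 (WBGene00021934, IV, 1087108 to 1093920, minus strand) had its summit between the start of cct-8 and that of a divergent gene. It spanned IV, 1094131 to 1094620, had a signal of 120.5, rank 259 of 416, and a summit 456 bp upstream of the cct-8 start. Replicate 1 had 65.6 at 479 bp upstream, rank 347, and replicate 2 had 50.6 at 349 bp upstream, rank 289. The replicate summits thus lay on either side of the pooled one. A further replicate 2 region at 555 bp upstream had 14.2, and a replicate 1 region 672 bp inside the gene had 18.2. Their ranks were 18347 of 22887 and 22243 of 25383, so both were weak regions of their lists.

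The start of Y55F3AR.2, a protein-coding gene (IV, 1094541 to 1097342, plus strand), was nearer to the cct-8 summit, at 165 bp, and the starts of these divergent genes are 621 bp apart. The ncRNA gene Y55F3AR.4 (IV, 1094087 to 1094209, plus strand) also had a nearer start, at 289 bp. When each region is given only to the nearest protein-coding start, cct-8 has none. The data do not say which of these genes the region belongs to.

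The gene cdc-48.1 (WBGene00007352, II, 10560036 to 10563407, minus strand) had, of the 4 genes, the summits that lay closest together across lists. The thresholded region (II, 10563346 to 10563835) had a signal of 141.4, rank 188 of 416, with the summit 184 bp upstream of the start. Replicate 1 had 82.5 at 180 bp upstream, rank 215, and replicate 2 had 63.1 at 162 bp, rank 178. The 3 summits fell within 22 bp of each other, and no start of any gene was nearer to the thresholded one. A snoRNA gene in the same orientation, C06A1.9, lies inside cdc-48.1 with its start 527 bp from the summit. Replicate 1 held a low-ranking region of 17.8 at 383 bp upstream, rank 23564 of 25383.

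**Figure D1:**
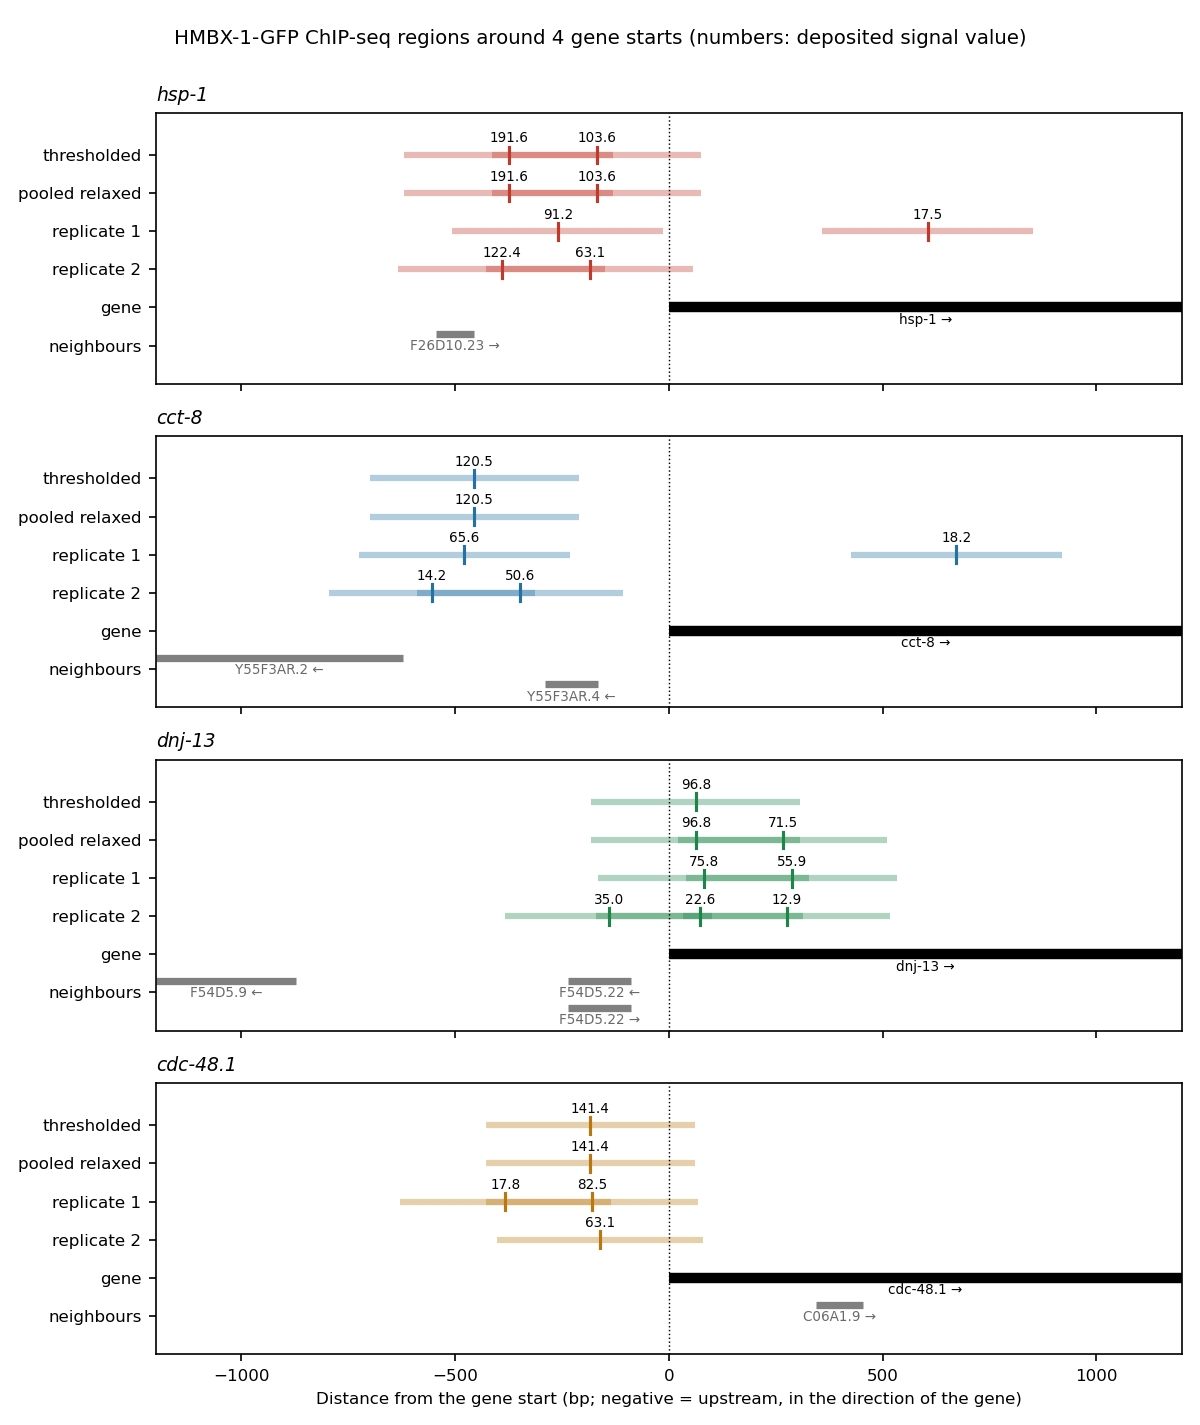
Regions within 1000 bp of each gene start, drawn along the distance from that start in bp (negative upstream, in the direction of the gene). Pale bars are regions, darker where they overlap, ticks are summits and numbers are signal values; black bars are the genes, grey bars their neighbours, and arrows give direction. The thresholded summits at hsp-1, cct-8 and cdc-48.1 lie upstream of the start, and that at dnj-13 lies 63 bp downstream.

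The side of the start was not used by the rule. Sides and distances refer to the annotated start, and where transcription begins was not measured. Of the 5 pairs of gene and thresholded region, 4 were upstream (80.0%), against 255 of 310 pairs (82.3%) for all other nuclear protein-coding genes within the same 1000 bp. The median distance was 184 bp for the 4 genes and 329.5 bp for the others, and all 5 pairs were within 500 bp, against 209 of 310. The share upstream was thus close to that of the other genes. With 5 pairs, these values are a description and no test was made.

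By signal the 5 regions spread through the thresholded list. The upper hsp-1 region and the cdc-48.1 region were above the median of 134.0, and the other 3 were below it. Among the 215 regions away from small RNA genes, whose median signal was 118.7, the ranks were 35 and 176 for hsp-1, 69 for cdc-48.1, 106 for cct-8 and 207 for dnj-13. Genes annotated as ncRNA do not count as small RNA genes here. Bodies of such genes lay 83 bp from the upper hsp-1 summit, 151 bp from that of dnj-13 and 167 bp from that of cct-8. Directly above and below the upper hsp-1 region in rank stood those nearest to klp-6 (191.9) and C30E1.4 (191.1). The cct-8 region ranked between those nearest to C03A3.1 (120.8) and hsr-9 (119.7). The first of these was 7 bp from a small RNA gene and 4692 bp from the C03A3.1 start. On either side of the cdc-48.1 region were regions of 141.7 and 140.9, both inside small RNA genes. The dnj-13 region ranked between those nearest to cki-1 (96.8) and cfp-1 (96.6). Those nearest to F09A5.3 (103.6) and Y56A3A.7 (103.3) flanked the lower hsp-1 region. The named nearest starts lay from 214 bp (hsr-9) to 6117 bp (C30E1.4) from these summits, so not all are promoter regions.

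**Figure D2:**
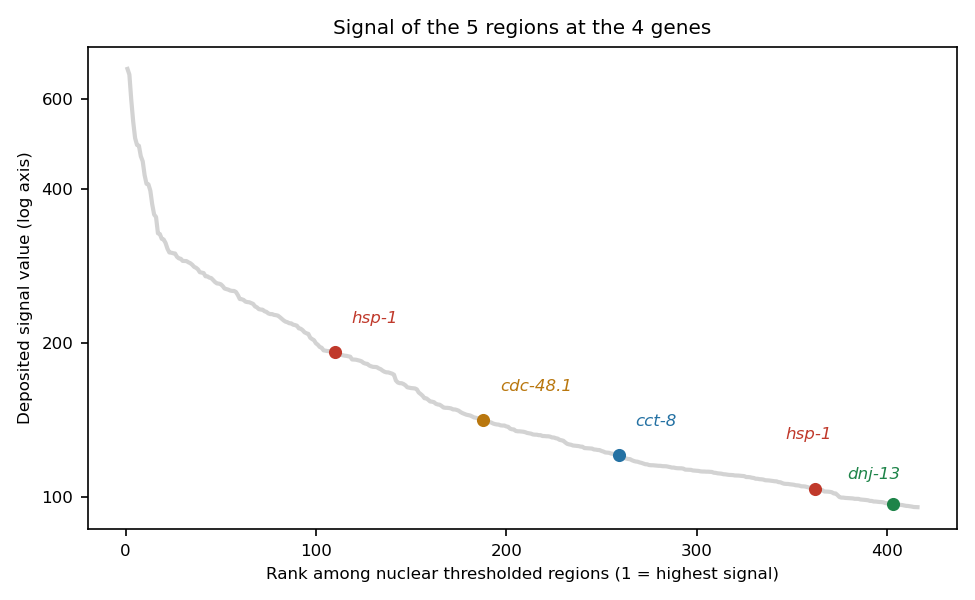
Signal value (log axis) against rank for the 416 nuclear thresholded regions (grey line), with the 5 regions at the 4 genes as coloured points. They run from 191.6 at hsp-1 to 96.8 at dnj-13, close to the end of the list at 95.3.

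The balance between the replicates differed among the genes. Signal scales differ between the replicate lists, so the ratio of replicate 2 to replicate 1 was set against the 415 thresholded regions with a region within 250 bp in both, where its median was 0.678. Taking the strongest replicate region within that distance, the ratio was 1.34 for both hsp-1 regions, at the 98.1 percentile, and replicate 2 exceeded replicate 1 in 54 of these regions (13.0%). At cct-8 and cdc-48.1 it was 0.771 and 0.765, percentiles 66.3 and 63.9. At dnj-13 it was 0.462, percentile 11.1, where the replicate 2 region is 204 bp from the thresholded summit.

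The choice of the matching region decided several of these values. With the replicate region of nearest summit, an alternative added after the data were seen, the median ratio over the 415 regions was 0.672. The upper hsp-1 region kept 1.34 (percentile 97.3) and cdc-48.1 kept 0.765 (percentile 63.4). The lower hsp-1 region had 0.692 (percentile 52.5), close to that median. At dnj-13 the ratio was 0.298 (percentile 1.69), from a replicate 2 region of 22.6 at a gap of 9 bp. At cct-8 it was 0.216 (percentile 0.241), from a replicate 2 region of 14.2 at a gap of 99 bp, whereas the stronger region of 50.6 lay 107 bp away on the other side. Under both choices cdc-48.1 and the upper hsp-1 region therefore had the same ratio, and the other 3 did not. With 2 replicates, no error can be attached to these ratios, and a single control file served both calls.

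Summit gaps also differed among the genes. Over the thresholded regions the strongest replicate region within 250 bp had its summit within 50 bp in 78.6% of cases for replicate 1 and 74.3% for replicate 2, with median gaps of 12 and 23 bp. At cdc-48.1 the gaps were 4 bp in replicate 1 and 22 bp in replicate 2. At cct-8 they were 23 and 107 bp, at dnj-13 18 and 204 bp, and at the upper hsp-1 summit 114 and 17 bp. At dnj-13 a weaker replicate 2 region lay 9 bp from the thresholded summit, so the 204 bp gap reflects which region was strongest there.

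**Figure D3:**
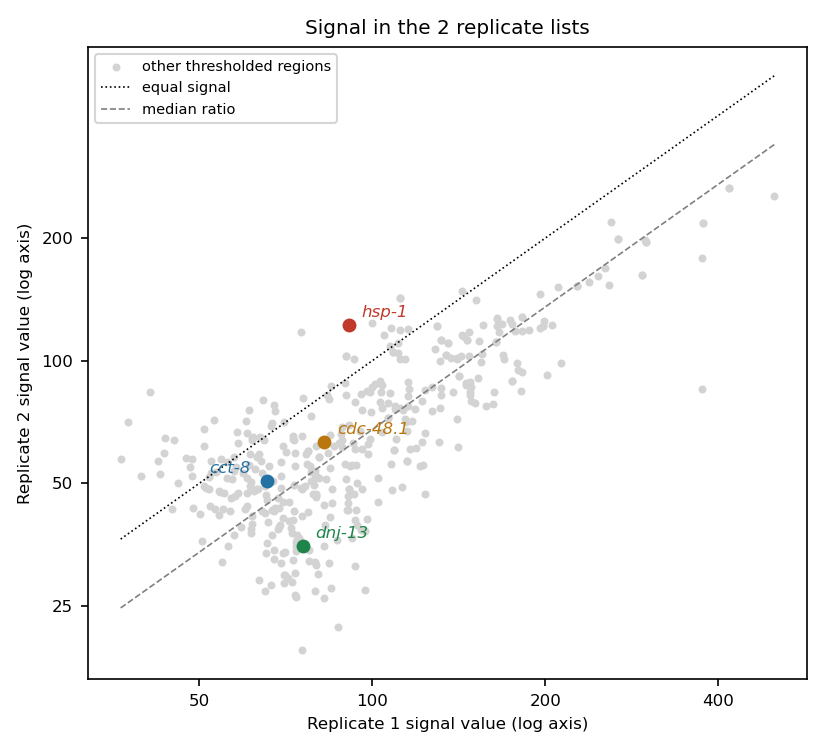
Signal values of replicate 2 against replicate 1 (both log axes) for the thresholded regions, taking the strongest region within 250 bp of the summit in each list; hsp-1 is drawn once because both of its regions match the same replicate regions. The hsp-1 point lies above the line of equal signal, cct-8 and cdc-48.1 lie near the median ratio of 0.678, and dnj-13 lies below it.

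The 4 genes were next placed among other folding and turnover genes, in 11 lists that held 162 genes of the annotation. Of these, 11 had a thresholded region within 1000 bp of the start, but the 4 genes chosen for having one are among them. Of the other 158 genes, 7 had one (4.43%), against 1.49% of all protein-coding genes. Of these 7, 6 were among 83 genes of the folding lists (7.23%) and 1 among 75 of the turnover lists (1.33%, near the share of all genes). The lists were drawn up with results on these data known, and no test was made of these shares. A region in the pooled relaxed list was present for 120 of the 158 genes (75.9%), against 46.2% of all genes, so they exceeded all genes in the relaxed list as well. How far this bears on the thresholded share was not tested. Neighbouring genes can share a region. The counts per list that follow include the 4 genes, so being the only gene of a list with a thresholded region does not set a chosen gene apart. The share to set beside each count is the 1.49% of all protein-coding genes, and the lists are short.

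In the HSP70 family hsp-1, chosen for its region, was the only one of 12 genes with a thresholded region. Next came hsp-110, an exchange factor that works with HSP70 and J-domain proteins in taking apart aggregates, with a pooled signal of 93.0 (rank 442) at 179 bp upstream, just below the lowest thresholded value. That same region lies 265 bp upstream of rpn-3, a subunit of the proteasome lid. The stress-inducible pair F44E5.4 and F44E5.5 shared a region of 83.9. The endoplasmic reticulum members hsp-3 and hsp-4 had 42.6 and 32.8, and the mitochondrial hsp-6 had 45.9. All of these were below the 191.6 of the upper hsp-1 region, an order that the threshold fixed for genes without a thresholded region. A thresholded region of 139.7 lay 1364 bp from the start of T24H7.2, outside the distance used, and its summit was 42 bp from a small RNA gene.

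Among 29 genes for J-domain proteins, 3 had a thresholded region, including dnj-13, which was chosen for having one. The strongest was dnj-29, a relative of Sec63 of the endoplasmic reticulum, with 243.8 at 187 bp upstream (134.5 in replicate 1 and 103.3 in replicate 2), and ndua-2 has a start 341 bp from that summit. The others were dnj-9, with 114.4 at 164 bp upstream, and dnj-13. Just outside the list came dnj-12 with 91.1. Of these, dnj-13 was the weakest thresholded one.

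Partners of HSP70 and HSP90 followed. In the list of HSP90, HSP60 and co-chaperones, 3 of 15 genes had a thresholded region. They were bag-1, an HSP70 nucleotide exchange factor, with 109.96 at 35 bp upstream, hsp-60, the mitochondrial chaperonin, with 106.7 at 644 bp, and ahsa-1, an activator of HSP90, with 98.1 at 209 bp. For hsp-60 and ahsa-1 the starts of Y22D7AL.10 and C01G10.7 were nearer to the summit, at 169 and 153 bp. The HSP90 gene hsp-90 had a pooled signal of 91.3 at 877 bp inside the gene.

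For the chaperonin, whose subunits are made for a common ring, cct-8 was the only one of the 8 CCT subunit genes with a thresholded region within 1000 bp. It was chosen for that region. All 8 had a pooled relaxed region. Beside 120.5 at cct-8, the values were 71.8 at cct-7, 57.7 at cct-6, 45.8 at cct-1, 42.3 at cct-4, 36.5 at cct-3, 25.8 at cct-5 and 24.4 at cct-2. Those of cct-2 and cct-5 were below the median of the pooled list, 30.7. A thresholded region of 124.3 had cct-7 as its nearest protein-coding start, but lay 3646 bp downstream of it, outside the distance used. Prefoldin, which hands unfolded actin and tubulin to CCT, had pfd-5 as 1 of 6 genes, with 95.3 at 154 bp upstream, the last region of the thresholded list. Just outside it, pfd-1 had 89.0.

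Among 17 genes for CDC-48 and its cofactors, cdc-48.1, chosen for its region, alone had a thresholded region. Its paralog cdc-48.2 had a pooled signal of 85.7, rank 531, at 984 bp upstream, against 141.4 at 184 bp for cdc-48.1. The cofactor genes ubxn-2, ufd-3 and ubxn-3 had 79.2, 78.3 and 59.8, and ufd-1 had 46.8. The genes npl-4.1, npl-4.2 and rad-23 had no pooled region within 1000 bp.

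No thresholded region was found near the proteasome genes themselves. None of 33 genes for the 20S core and 19S regulatory particle had one within 1000 bp, which allows a share of up to 9.09%, a limit above the 1.49% of all genes. The strongest pooled values were 93.0 at rpn-3 and 89.0 at rpn-7 in the 19S particle, and 71.8 at pas-1 and 61.2 at pas-5 in the 20S core. The thresholded region nearest to one of them, with 184.6, lay 1187 bp from the start of pbs-5. The nearest protein-coding start to that summit was that of K05C4.2, at 315 bp. Among 26 genes for ubiquitin and its activating and conjugating enzymes, uba-2, which encodes a subunit of the SUMO-activating enzyme, had one with 110.9 at 303 bp upstream, where the start of vps-25 was 10 bp from the summit. The genes ubc-7 and ubc-14 had pooled values of 81.5 and 60.2, and a thresholded region of 131.4 lay 1157 bp from the ubc-7 start. The start of rpac-19 was nearer to that summit, at 125 bp.

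None of 14 small HSP genes had a thresholded region. This allows a share of up to 21.4%, far above the 1.49% of all genes, so a count of 0 in so short a list sets these genes apart in no way. Among them the highest pooled values were 70.8, at 759 bp downstream of the hsp-12.3 start, and 64.7, at 837 and 798 bp downstream of the hsp-16.48 starts. These summits lay past the ends of those genes. A region of 63.8 lay 19 bp upstream of hsp-16.2 and 202 bp upstream of hsp-16.41. The heat shock factor gene hsf-1 had 24.3 and hsb-1, which encodes its binding partner, had 43.3. All of these were below the thresholded range.

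**Figure D4:**
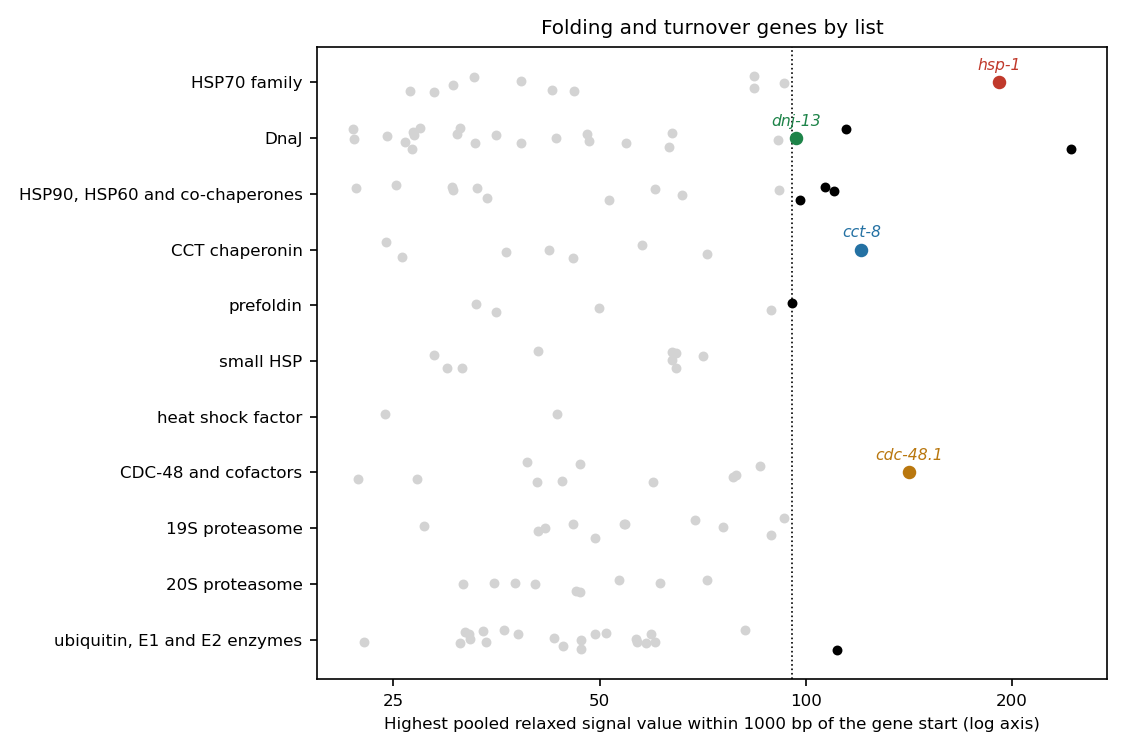
Highest pooled relaxed signal value (log axis) within 1000 bp of the start for each gene of the 11 lists that has such a region, 1 point per gene. Coloured points are the 4 genes, black points other genes with a thresholded region, grey points genes without one, and the dotted line is the lowest thresholded signal of 95.3. The 4 genes lie right of the line because they were chosen for a thresholded region. For the same reason hsp-1, cct-8 and cdc-48.1 are at the highest value of their lists, where no other gene has such a region.

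Finally, 7 short words were searched on both strands in the 201-base windows printed above. GAANNTTC and TTCNNGAA are pairs of the inverted GAA units that make up heat shock elements, the sites of the heat shock factor. GAANNTTC was present in 3 of the 5 windows, both at hsp-1 and at cct-8, against 41 of 416 thresholded windows (9.86%), 28 of 215 away from small RNA genes (13.0%) and 14.6% of the 29562 pooled relaxed windows outside the list. At hsp-1 the matches were GAACATTC, beginning 354 bp upstream of the start, and GAATTTTC, beginning 144 bp upstream, and at cct-8 the match GAATTTTC began 385 bp upstream. The 5 windows are too few for a share, and the words were counted on members chosen for their regions.

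In the lower hsp-1 window GAATTTTC overlapped a match to TTCNNGAA (TTCTAGAA, beginning 139 bp upstream), so that 3 alternating units stood in a row, each 2 bases from the next. Of the 5 windows, only this one held TTCNNGAA, which was in 9.38% of thresholded windows, 11.2% of those away from small RNA genes and 13.2% of those outside the list. The arrangement of 3 units was in 8 of 416 thresholded windows (1.92%), in 6 of the 215 away from small RNA genes (2.79%) and in 436 of the windows outside the list (1.47%). It was counted after the match at hsp-1 had been seen. A match describes the letters only, and the occupancy of the heat shock factor was not measured.

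TATAAA was present in the cdc-48.1 window alone, beginning 206 bp upstream of the start. It was in 16.8% of thresholded windows, 15.3% of those away from small RNA genes and 24.7% of those outside the list. TTGCAA was in none of the 5 windows, against 19.7% of thresholded windows, 25.1% of those away from small RNA genes and 10.9% outside the list. GTTCGA, part of the internal tRNA promoter, was in none of the 5, against 33.2%, 9.30% and 6.53% over the same 3 sets. TAGTTA, the central letters bound by human HMBOX1, did not occur in them, against 3.61%, 2.79% and 8.15% over these sets. TTAGGC, the worm telomere repeat, was in none, against 7.45%, 5.12% and 6.56%. No word was thus common to the 4 genes, and the dnj-13 window held none of the 7.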

How the data were processed

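ChIP-seq region lists of 2 biological replicates, deposited in the narrowPeak layout, were read. Per the deposited notes beside the files, the authors called relaxed lists (peaks and background as input for the irreproducible discovery rate, IDR, procedure) on each replicate and on both together, against a shared control file, and derived the IDR-thresholded list from them. The deposited signal value per region served to order and describe the regions of each list, and the deposited −log10 q value was used for no result. The aligner and caller, their versions and the IDR cutoff were not given in the sources used here. Depth is therefore unknown.

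The ce11 lists were used and the ce10 lists were not; no coordinate was converted. All region ends lie within the WBcel235 chromosome lengths. Gene starts are the 5′ ends of Ensembl release 115 gene models, and positions are 1-based. Mitochondrial regions were left out. A summit is the region start plus the deposited offset. For ratios between replicates, the strongest replicate region within 250 bp of a thresholded summit was taken. Small RNA genes are tRNA, snoRNA, snRNA and rRNA genes, with the summit within 250 bp of the gene body. Of 168 list names, 160 matched the annotation and gave 162 genes, since 2 names are each held by 2 genes. The text names the 4 genes, neighbours with a nearer start or around a summit, neighbours in rank, list genes with a thresholded region, and the strongest genes per list by pooled signal. Further list genes were named after their values were seen. A count of 0 carries the limit of 3 counts, which covers counting only. No test was run, since members and lists were chosen with earlier results of these data known. Python 3.11.15, pandas 2.3.3, numpy 2.4.6 and scipy 1.17.1 were used, and the distance and word searches were tested on simulated data.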

Additional observations from a re-analysis of the deposited data

How the results depend on the processing

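All 4 genes kept a thresholded region with the distance set to 500 or 2000 bp, with region midpoints in place of summits, and with any annotated transcript start; 3 kept one at 250 bp and when only the nearest protein-coding start counts, cct-8 being lost in both. With only the regions of above-median signal, 2 of the 4 genes (hsp-1 and cdc-48.1) and 3 of the 11 list genes remained. With the nearest start only, 7 list genes remained, 3 of them from the 4 chosen genes. Without the 4 genes themselves, 7 of the 11 are left. On the 416 strongest regions of a single replicate, all 4 genes were found without replicate 2 and 3 without replicate 1, where dnj-13 was lost; 8 list genes were found in each case, 7 of them among the 11. For all protein-coding genes the share moved between 0.601% at 250 bp and 2.25% at 2000 bp. It was 0.706% with the regions of above-median signal, 1.08% with the nearest start only and 1.4% on the strongest regions of either replicate alone. The counts of list genes are to be set beside these shares. Matches of words to windows numbered 5, and 4 with 50 bp on each side. Centred on replicate summits, in 4 windows each, they numbered from 2 (without replicate 2) to 6 (without replicate 1). Each replicate window was centred on the strongest region within 250 bp, so the hsp-1 summits shared a window in each replicate. The matches at the lower hsp-1 summit lie outside that window in both replicates, and replicate 1 has no region of its own there. The count of 6 thus includes other matches, among them GTTCGA in 1 window. GAANNTTC was in 3 windows in the main setting, 2 with 50 bp on each side, 3 without replicate 1 and 1 without replicate 2. For TTCNNGAA these counts were 1, 1, 1 and 0. No paired analysis was possible because there is a single group. Depth is unknown, so no limit from read number can be given.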
